A study of Mus musculus with 8 samples.

Results

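A head-to-head bidirectional coding promoter is the stretch of DNA between 2 protein-coding genes that start close together, lie on opposite strands and point away from each other. Pairs were taken from the GENCODE M21 gene annotation of the mouse genome (mm10) where the most upstream transcription start sites (TSSs) of both genes were at most 1000 bp apart. The region of a pair was the span between both TSSs plus 1 kb on each side. The rule gave 755 pairs, formed by 1489 of 21938 protein-coding genes. Of these, 42 pairs shared a gene with another pair, and the 755 regions formed 733 groups that did not overlap each other, so neighbouring pairs can share a peak. The TSSs of a pair lay 129 bp apart in the median (interquartile range 66.5 to 240 bp, range 0 to 987 bp), with 313 pairs at 100 bp or less and 136 pairs beyond 300 bp. Chromosome 11 held 68 pairs, chromosomes 2 and 7 held 59 each, chromosome X held 20 and chromosome Y held 0. Another 445 coding pairs have 5′ ends that overlap by up to 1000 bp, and these were kept apart from the 755.

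Acetylation of histone H3 at lysine 9 (H3K9ac) was mapped by chromatin immunoprecipitation and sequencing in whole bone marrow cells of C57BL/6 mice. All mice carried the NUP98-HOXD13 transgene, a fusion gene that gives a model of myelodysplastic syndrome with progression to acute myeloid leukaemia. The mice differed at GFI1, a transcriptional repressor of blood development: GFI1-36S mice carried the common human form, GFI1-36N mice the variant with asparagine in place of serine, and GFI1-KD mice had reduced expression. Mice of each genotype had received curcumin at 20 mg/kg weekly by intraperitoneal injection or vehicle without curcumin, and each of the 6 combinations was 1 library. The human GFI1 alleles stand at the mouse locus in these strains, and the ages of the mice, the number of mice behind a library and the disease stage of each were not given in the sources used here. With 1 library per group, a difference between 2 groups had no replicate check and was not tested. Curcumin could be set against vehicle over the 3 genotypes, where an exact test cannot give a two-sided p below 0.25. The intervals given with shares are Wilson 95% intervals over regions and cover neither animals nor libraries.

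The 6 peak lists held 20354 to 49213 peaks, with the lowest number in GFI1-36S curcumin and at least 30784 in each of the others. GFI1-36S curcumin stood apart in other ways: it held 3 peaks on chromosome Y where the other lists held 0, it had a peak at the promoters of 1 of 9 neutrophil, 2 of 7 erythroid and 7 of 8 T cell marker genes, and GFI1-36S vehicle had one at 8, 7 and 1 of the same genes. Treatments in the names given to the 2 GFI1-36S lists are the reverse of those in their labels. Groups here follow the labels, and directions of change in GFI1-36S turn around under the other reading. The names of the GFI1-36N lists also appear to mark a different number of variant alleles for vehicle and curcumin, which the labels do not give. The sequencing depth of the libraries was not analysed here. Counts of fragments at each summit, recovered from the listed statistics, had a median of 24 to 36 over all peaks of a list.

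Head-to-head pairs are a large class of mammalian promoters, in which 1 nucleosome-depleted stretch, usually rich in CpG dinucleotides, serves transcription in both directions. They are known for genes that every cell uses, such as those of DNA repair, mitochondria and histones. H3K9ac is placed by acetyltransferases on the nucleosomes that flank active start sites, and at a one-way promoter the nucleosomes downstream of the TSS usually carry most of it. At a head-to-head pair both flanks are the beginning of a gene.

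Spans of 8 pairs that the results below turn on are printed to show how short the shared DNA is and how varied its make-up. Each is the reference sequence between the TSSs on the plus strand of mm10, 5′ to 3′, so that the first gene named starts to the left on the minus strand and the second gene starts to the right. Capitals mark matches on either strand to CCGGAAG (an ETS factor motif), GCATGCGC (NRF1), GGGCGG (SP1) and CCAAT (NF-Y), and a match is a description of letters, not a site. Mrps18b/Ppp1r10 had one of the widest peaks, Cct5/Fam173b changed rank with treatment in GFI1-36S, Mrps12/Sars2 and Brca1/Nbr1 are textbook pairs, Gpc2/Stag3, Acyp1/Zc2hc1c and Ifit1bl2/Ifit1 had no peak in GFI1-36S curcumin and uneven ranks in the other libraries, and Rpl9/Lias was among the most strongly enriched.
Mrps18b/Ppp1r10, chr17:35916390-35916433: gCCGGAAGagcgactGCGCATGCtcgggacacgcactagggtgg
Cct5/Fam173b, chr15:31601805-31601851: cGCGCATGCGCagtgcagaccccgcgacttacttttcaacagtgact
Mrps12/Sars2, chr7:28741821-28741991: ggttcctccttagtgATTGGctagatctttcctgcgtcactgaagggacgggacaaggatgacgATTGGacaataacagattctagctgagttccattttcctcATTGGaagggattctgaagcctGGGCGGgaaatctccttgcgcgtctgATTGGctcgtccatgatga
Brca1/Nbr1, chr11:101551956-101552148: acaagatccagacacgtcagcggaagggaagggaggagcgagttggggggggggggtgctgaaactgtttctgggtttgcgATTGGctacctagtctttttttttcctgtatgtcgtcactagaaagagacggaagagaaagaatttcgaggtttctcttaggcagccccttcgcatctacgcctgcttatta
Gpc2/Stag3, chr5:138280006-138280239: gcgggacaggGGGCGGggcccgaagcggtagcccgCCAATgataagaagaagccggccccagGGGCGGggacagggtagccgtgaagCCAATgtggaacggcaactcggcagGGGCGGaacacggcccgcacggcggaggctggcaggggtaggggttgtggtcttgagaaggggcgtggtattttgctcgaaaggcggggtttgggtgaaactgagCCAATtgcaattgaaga
Acyp1/Zc2hc1c, chr12:85288439-85288590: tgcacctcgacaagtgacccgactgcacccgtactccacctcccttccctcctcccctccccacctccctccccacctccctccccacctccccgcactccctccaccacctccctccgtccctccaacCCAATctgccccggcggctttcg
Ifit1bl2/Ifit1, chr19:34640744-34640870: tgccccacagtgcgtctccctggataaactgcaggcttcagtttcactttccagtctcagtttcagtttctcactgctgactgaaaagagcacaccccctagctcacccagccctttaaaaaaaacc
Rpl9/Lias, chr5:65391445-65391496: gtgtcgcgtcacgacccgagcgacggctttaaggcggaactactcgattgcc

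These spans differed in composition as widely as in length. Ifit1bl2/Ifit1 held 1 CpG in 127 bp, while Rpl9/Lias held 8 in 52 bp and Gpc2/Stag3 held 18 in 234 bp. Over 1 kb around the midpoint, the pairs had a median GC content of 60.1%, and a median ratio of observed to expected CpG of 0.773. One-way promoters were defined as coding genes in no pair and with no TSS of any gene on the opposite strand within 1000 bp. Over 1 kb around the TSS they had 53.3% and 0.444 (17892 genes). A ratio of at least 0.6 with a GC content of at least 50%, the usual mark of a CpG island, held for 83.3% of pairs and 37.0% of one-way promoters.

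Most pairs carried an H3K9ac peak in every library. A peak overlapped the region in all 6 lists for 657 of 755 pairs (87.0%, interval 84.4 to 89.2%), where 40.5% of all coding promoters and 32.9% (32.2 to 33.5%) of one-way promoters had a peak in all 6. Only 36 pairs (4.77%) were listed in some libraries and not in others, against 15.5% of one-way promoters, and 62 pairs (8.21%) had no peak in any list, against 51.7%. By library, the share of pairs with a peak was 90.6% in GFI1-36S vehicle, 87.4% in GFI1-36S curcumin, 90.6% and 91.0% in GFI1-36N vehicle and curcumin, and 91.3% and 90.6% in GFI1-KD vehicle and curcumin. The 5 lists other than GFI1-36S curcumin shared 678 pairs (89.8%), and 21 of these were missing from that list alone. Of all coding promoters the same 5 lists shared 10134, and 1245 of these were missing from GFI1-36S curcumin alone.

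The gap was as large in windows of equal length. Measured 1 gene at a time in the same window of 1 kb on each side of the TSS, 86.9% (85.1 to 88.5%) of the 1489 genes in pairs had a peak in all 6 lists. Both genes of a pair were counted and their windows overlap, so this interval treats related values as separate and is too narrow. Pairs with overlapping 5′ ends were close behind at 82.7% (78.9 to 85.9%). Coding promoters divergent from a noncoding gene, 871 in number and also rich in CpG, reached 61.4% (58.2 to 64.6%). CpG content went with much of the difference but not with all of it. One-way promoters whose CpG ratio was at least the median of the pairs had a peak in all 6 lists in 73.4% (71.8 to 74.8%). At a CpG ratio of 0.5 to 0.7 the shares were 83.1% of pairs and 49.4% of one-way promoters, at 0.7 to 0.9 they were 93.9% and 69.7%, and at 0.9 or more they were 94.4% and 76.2%. The 24 pairs below 0.3 had a peak in all 6 lists in 16.7%, against 3.41% of one-way promoters.

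**Figure D1:**
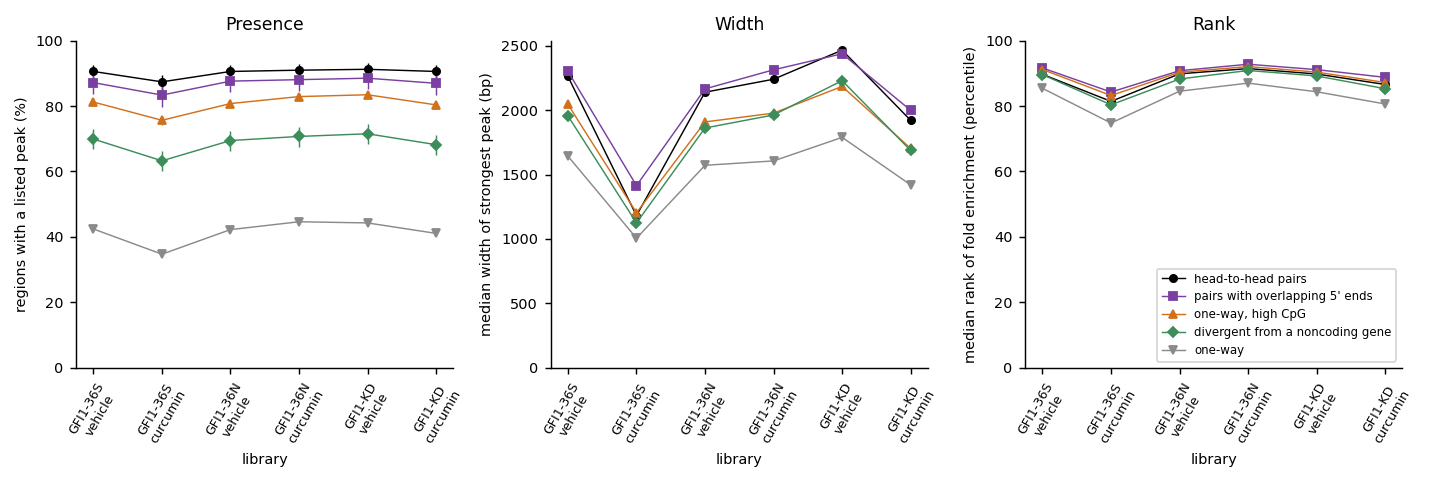
Share of regions with a listed H3K9ac peak (%, bars are Wilson 95% intervals), median width of the strongest peak (bp) and median percentile rank of its fold enrichment, in each of the 6 libraries for 5 classes of coding promoter. Head-to-head pairs lie between 87.4% and 91.3% in every library, one-way promoters between 34.7% and 44.6%, and the median widths of all classes are lowest in GFI1-36S curcumin.

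The 62 pairs without a listed peak were of several kinds. In 35 of them the CpG ratio was below 0.6, among them pairs of tissue genes such as Col4a4/Col4a3, which encode collagen chains of kidney basement membrane, Kirrel2/Nphs1, which encode proteins of the podocyte slit diaphragm, and Dgcr2/Tssk2, which includes a testis kinase. The other 27 had a ratio of at least 0.6. They included the imprinted pair Sgce/Peg10, with no listed peak for 133667 bp to the left and 48618 bp to the right. They also included genes that every cell uses: Ftsj3/Psmc5 and Psma7/Ss18l1, each with a proteasome subunit, and Alyref/Anapc11, with an mRNA export factor and a subunit of the anaphase-promoting complex. The nearest listed peak of any library was 31105 bp from Ftsj3/Psmc5, 16665 bp from Psma7/Ss18l1 and 47859 bp from Alyref/Anapc11. The authors had removed peaks in black list regions, and whether these pairs lie in them was not tested, so a missing peak does not show missing acetylation. For 9 of the 62 pairs a listed peak began less than 1.5 kb outside the region, such as 1300017J02Rik/Topbp1 at 484 bp and Pdxdc1/Mpv17l at 678 bp, where the most upstream annotated TSS lay away from the peak. Pairs without a peak and with closely spaced TSSs included Hjurp/Trpm8 at 28 bp, Pdxdc1/Mpv17l at 30 bp and Best1/Rab3il1 at 36 bp. All pairs named here are examples, and unmarked pairs of low and high CpG ratio were not compared by kind of gene.

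The peaks at pairs were also wide and highly ranked. The rank of a peak is its percentile, from 0 to 100, by fold enrichment over background among all peaks of its own list, and the strongest peak of a region stands for it. The median rank of pairs was 91.5 in GFI1-36N curcumin, 89.7 to 89.9 in the 3 vehicle libraries, 86.6 in GFI1-KD curcumin and 81.4 in GFI1-36S curcumin. One-way promoters with a peak had medians of 74.8 to 87.0, so that pairs were higher by 4.26 to 6.63 points within each library. Much of this gap went with CpG content as well. Against the one-way promoters with a CpG ratio at or above the median of the pairs, whose CpG content is above that of an average pair, the median rank of pairs was lower by 0.471 to 1.79 points in all 6 libraries. Compared within bands of the CpG ratio, pairs were higher in 18 of 18 medians at a ratio of 0.5 and above, by 0.79 to 5.22 points. At a ratio of 0.3 to 0.5 they were higher in 6 of 6 libraries, by 1.93 to 9.8 points. Below 0.3, where few pairs had a peak, they were higher in 6 of 6, by 2.25 to 12.01 points.

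Median widths of pairs lay above those of one-way promoters in all 6 libraries. The strongest peak at a pair had a median width of 2263 bp (interquartile range 1543 to 2833 bp) in GFI1-36S vehicle, 1181 bp in GFI1-36S curcumin, 2140 bp and 2241 bp in GFI1-36N vehicle and curcumin, and 2467 bp and 1922 bp in GFI1-KD vehicle and curcumin. One-way promoters had medians of 1006 to 1789 bp. The difference was 502 to 678 bp in 5 libraries and 176 bp in GFI1-36S curcumin. Against high-CpG one-way promoters pairs were wider by 218 to 282 bp in the 5 libraries, and narrower by 22 bp in GFI1-36S curcumin. Within bands of the CpG ratio at 0.5 and above, pairs were wider in 18 of 18 medians, by 30.0 to 708 bp. At a ratio below 0.3, where few pairs had a peak, their median width was below that of one-way promoters in 6 of 6 libraries, with differences of −345 to −17 bp. In GFI1-36S curcumin the peak over a pair was more often broken up: 45.6% of pairs with a peak had more than 1, against 10.5 to 27.8% in the other libraries.

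Oriented by gene, the extra width lay upstream of the TSS, where the partner gene begins. In GFI1-36N vehicle, the position 500 bp upstream of the TSS was inside a peak for 91.0% of genes in pairs with a peak, for 65.5% of high-CpG one-way genes and for 48.1% of all one-way genes. At 1000 bp upstream the shares were 69.9%, 23.9% and 16.5%. Into the gene the order was the other way round. At 1000 bp downstream 58.0% of genes in pairs were covered, against 76.6% of high-CpG and 64.0% of all one-way genes, and at 1500 bp the shares were 23.6%, 46.0% and 36.7%. The same order at 1500 bp downstream held in all 6 libraries, with 7.65 to 29.9% of genes in pairs covered and 17.6 to 42.3% of all one-way genes. Peaks at pairs thus covered both gene starts and extended less far into either gene than peaks at one-way promoters did.

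**Figure D2:**
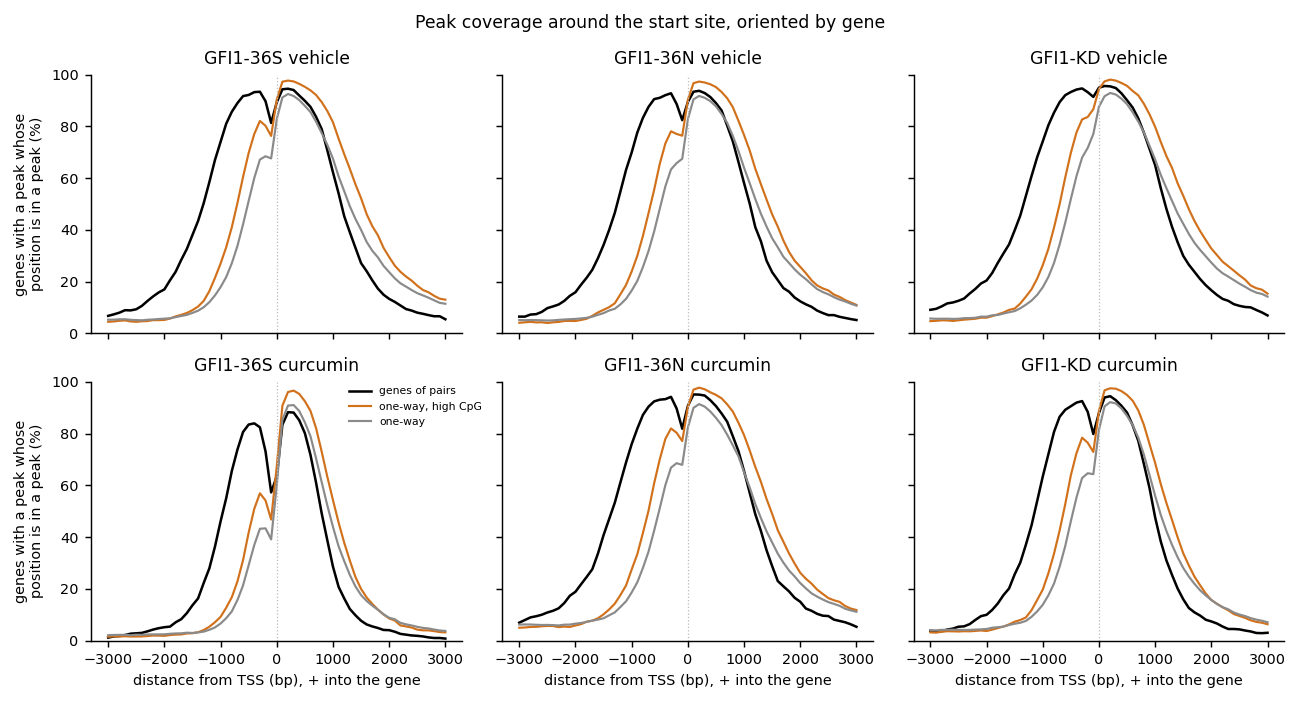
Share of genes with a peak (%) whose position at a given distance from the TSS (bp, positive into the gene) lies inside a peak, for genes of head-to-head pairs, one-way genes with a high CpG ratio and all one-way genes, 1 panel per library. The pairs cover both sides of the TSS with a dip just upstream of it, reaching 91.0% at 500 bp upstream in GFI1-36N vehicle, and lie below both other curves 1500 bp into the gene.

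Both arms of a pair were acetylated in most cases. At least 500 bp of the 1 kb arm into each gene lay in peaks for 82.6% of pairs with a peak in GFI1-36S vehicle, 81.1 to 83.5% in both GFI1-36N libraries and GFI1-KD vehicle, 79.4% in GFI1-KD curcumin and 62.6% in GFI1-36S curcumin. For the upstream and downstream sides of one-way promoters with a peak the same held in 21.01 to 48.4%, and at high-CpG one-way promoters in 31.8 to 67.4%. The shorter arm of a pair had a median coverage of 604 bp in GFI1-36S curcumin and 789 to 917 bp in the other libraries, out of 1 kb.

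The most common form was 1 peak over both TSSs. It was found in 87.2% of pairs with a peak in GFI1-KD vehicle, 75.9% in GFI1-36N vehicle, 74.7% in GFI1-36S vehicle, 74.4% in GFI1-36N curcumin, 71.9% in GFI1-KD curcumin and 44.5% in GFI1-36S curcumin. GFI1-KD vehicle, with the most fragments per summit at pairs (median 187, against 79 to 140 elsewhere), was highest, and GFI1-36S curcumin, with 79, was lowest. Of the 657 pairs with a peak in all 6 lists, 286 (43.5%) had 1 peak over both TSSs in all 6. The share was lower at wider spacing in every library: at up to 100 bp between TSSs it was 62.3 to 97.3%, above 100 and up to 300 bp 32.5 to 84.2%, and beyond 300 bp 27.9 to 70.0%. A peak has to reach further to cover both TSSs at wider spacing, so a fall with spacing is built into the definition.

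**Figure D3:**
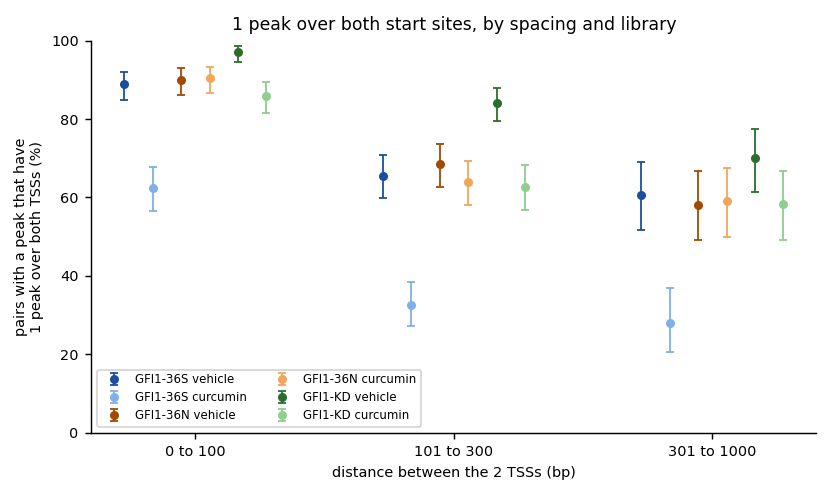
Share of pairs with a peak that have 1 peak over both TSSs (%), by distance between the TSSs (bp) and library, with Wilson 95% intervals. In each library the share is highest at 0 to 100 bp, where it reaches 97.3% in GFI1-KD vehicle and 62.3% in GFI1-36S curcumin.

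The midpoint between the TSSs was less often covered than the gene starts. Over all pairs with a peak it lay inside one in 78.8 to 91.0% in the 5 libraries other than GFI1-36S curcumin, and in 52.6% there, whereas positions 250 bp into the genes were covered in 93.1 to 95.1% and 87.9%. The midpoint was least often covered at a spacing above 100 and up to 300 bp (68.6 to 87.0%, and 38.1% in GFI1-36S curcumin), below the values beyond 300 bp (75.7 to 82.5%, and 56.8%), in 5 of 6 libraries. In GFI1-KD vehicle the order was the other way round, with 87.0% and 82.5%.

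Separate peaks at each TSS were found in at least 1 list for 139 pairs, in at least 4 lists for 33 and in all 6 for 7. The pairs with the widest spacing among the 33 were Urod/Hectd3 (904 bp), Fhod1/Slc9a5 (890 bp) and Pdcd10/Serpini1 (691 bp). Urod encodes uroporphyrinogen decarboxylase of heme synthesis. Its pair had separate peaks in 4 lists and a peak at the Hectd3 TSS alone in GFI1-36S curcumin and GFI1-36N vehicle, with ranks of 66.4 to 87.7. Fhod1, a formin, and Slc9a5, a sodium-proton exchanger, had separate peaks in the 5 lists other than GFI1-36S curcumin, where the Slc9a5 TSS alone was covered. At Pdcd10/Serpini1, a regulator of vessel integrity beside a neuronal serpin, the Pdcd10 side alone was left in GFI1-36S curcumin, and the ranks were 87.0 to 97.6.

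The summit of the strongest peak usually sat inside one of the genes, and on the same one in each library. It lay between the TSSs in 3.07 to 3.801% of pairs with a peak, and beyond them at a median of 235 to 255 bp into a gene. The share between the TSSs depended on their spacing. At up to 100 bp it was 0 to 0.344%, and beyond 300 bp it was 11.7 to 15.4%. Summits at one-way promoters lay 232 to 260 bp downstream of the TSS in the median. Of the 657 pairs, 477 (72.6%) had the summit on the same side in all 6 lists, 239 on the minus-strand gene and 238 on the plus-strand gene. A further 79 kept 1 side in 5 lists and 74 in 4, and 27 were divided 3 against 3.

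The side of the summit is given for 3 of the gene groups, and differences between these small groups were not tested. Among 10 pairs of the cytosolic ribosome list, the summit was on the ribosomal side in all 6 lists in 6, on the partner in all 6 in 1 and mixed in 3. The 6 were Rpl35a, Rps2, Rpl7a, Rps27 and Rpl9, whose products are ribosomal subunits, and Rps6kb1, a kinase of ribosomal protein S6 that the list took in by its name. The exception was Polr3a/Rps24, where the summit lay on Polr3a, the largest subunit of RNA polymerase III. Among 29 pairs of the DNA repair list, the summit was on the repair gene in all 6 lists in 6, including Rad51c, Rad17, Parp2, Xrcc1 and Wrn, and on the partner in all 6 in 15, including the partners of Brca1, Atm, Prkdc, Xpc, Fancd2 and Lig4. Of these 15, 2 are pairs of Pms1 that share their peaks. The 18 mitochondrial ribosome pairs were divided 9 to 7, with 2 mixed.

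In 6 of the gene groups, each pair with a listed gene was marked in each library, where 87.0% of all pairs were. DNA repair genes formed 29 pairs, and all 29 had a peak in all 6 lists. The same held for 18 of 18 pairs with a gene of the mitochondrial ribosome, 19 of 19 of the respiratory chain, 10 of 10 of the cytosolic ribosome, 10 of 10 of DNA replication and 6 of 6 of mitochondrial import. The median rank over the lists of these groups was 96.0 for the cytosolic ribosome and 89.3 to 90.1 for the other 5. One-way genes of the same lists were often marked too, with a peak in all 6 lists at 42 of 46 of DNA repair, 39 of 41 of the mitochondrial ribosome, 44 of 57 of the respiratory chain, 60 of 77 of the cytosolic ribosome, 26 of 29 of DNA replication and 19 of 22 of mitochondrial import. Of 7 pairs with a proteasome gene, 5 had a peak in all 6 lists and 2 had none. The lowest median ranks in the 6 fully marked groups, 73.3 and 73.7, were those of Ndufa1/Rnf113a1, with a subunit of complex I, and Mospd2/Fancb, with a Fanconi anaemia protein, both on chromosome X.

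Histone genes were the group most often paired, and the most divided. Of 67 replication-dependent histone genes, 27 (40.3%) lay in 14 pairs, where 1489 of 21938 coding genes lay in pairs. All of the 14 but Bola1/Hist2h2ab joined 2 histone genes. A peak was present in all 6 lists for 7 pairs and in none for 7. Marked pairs were Hist1h2bl/Hist1h2ai, Hist1h2ah/Hist1h2bk, Hist1h2ag/Hist1h2bj, Hist1h2bh/Hist1h3f, Hist1h2ae/Hist1h2bg, Hist1h2bf/Hist1h2ad and Hist1h2ac/Hist1h2bc, with ranks of 67.1 to 93.8. The pairs Hist1h2ae/Hist1h2bg and Hist1h2bf/Hist1h2ad had the same strongest peak. The unmarked pairs were Hist1h2ak/Hist1h2bn, Hist1h2an/Hist1h2bp, Hist1h2bq/Hist1h2ao and Hist1h2ap/Hist1h2br, which stand in 1 stretch of chromosome 13 that held no listed peak, Hist1h2ba/Hist1h2aa, which are known as testis histones, and Bola1/Hist2h2ab and Hist2h2ac/Hist2h2be on chromosome 3. Genes of these clusters are nearly identical copies, so reads may not have been placed on them, and this was not tested.

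Few of the listed tissue and interferon genes were in pairs, where 1489 of 21938 coding genes were. Of 229 genes on a list of collagen IV and other tissue genes, 4 were in 3 pairs: Col4a4/Col4a3 and Pcdh12/Rnf14 had no peak, and Polk/Col4a3bp, which the list took in by its name and which encodes a ceramide transporter beside a DNA polymerase, had a peak in all 6. Of 57 interferon and antigen processing genes, 1 was in a pair, Ifit1bl2/Ifit1. Pairs with overlapping 5′ ends, such as Psmb9/Tap1 and Dtx3l/Parp9, are outside this count.

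Of the textbook pairs, 5 met the rule and all 5 had a peak in each list. Mcm4/Prkdc joins a subunit of the replicative helicase to the catalytic subunit of DNA-dependent protein kinase. It had 1 peak over both TSSs in 6 lists and ranks of 95.3, 96.8, 95.4, 97.1, 93.9 and 94.7, in the order GFI1-36S vehicle and curcumin, GFI1-36N vehicle and curcumin, GFI1-KD vehicle and curcumin, which is kept below. Gart/Son, with an enzyme of purine synthesis and a splicing cofactor, ranked at 98.6, 93.5, 98.5, 99.02, 98.9 and 97.8. Mrps12/Sars2, with a mitochondrial ribosomal protein and the mitochondrial seryl-tRNA synthetase, ranked at 92.9, 89.3, 96.8, 98.4, 95.4 and 96.7. These 3 had 1 peak over both TSSs throughout.

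The DNA damage genes Atm and Brca1 showed a lopsided form. At Atm/Npat, where Atm encodes a kinase of the break response and Npat a regulator of histone transcription, the peak reached the Npat TSS and not the Atm TSS in the 5 lists other than GFI1-KD vehicle, which had the most fragments at the summit (235, against 104 to 160). Ranks were 93.3, 92.4, 93.1, 92.0, 95.2 and 92.6. At Brca1/Nbr1 the strongest peak reached the Nbr1 TSS alone in GFI1-36S vehicle, GFI1-36S curcumin and GFI1-KD curcumin, and covered both in the other 3, with ranks of 87.4, 92.2, 94.2, 93.6, 92.0 and 86.5. The peak width at Brca1/Nbr1 was 1528 to 2305 bp in the first 3 and 3659 to 4269 bp in the others. Other textbook pairs have overlapping 5′ ends in this annotation.

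Among those, Hspd1/Hspe1, which encode the mitochondrial chaperonin and its cofactor, had 1 peak over both TSSs in 6 lists with ranks of 93.4 to 99.6. Psmb9/Tap1, with an immunoproteasome subunit and a peptide transporter of antigen presentation, ranked at 81.8 to 94.1. Col4a1/Col4a2 had no peak in any list, and Surf1/Surf2, Ppat/Paics, Dtx3l/Parp9 and Cdc45/Ufd1 had one in all 6. Pcna/Cds2 and Rnaseh2c/Kat5 formed no pair by the rule.

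By their lowest rank over the 6 lists the leading 5 were Cdc27/Myl4, Rpl9/Lias, Deaf1/Tmem80, Nfya/Oard1 and Dnajb4/Fubp1. Cdc27, a subunit of the anaphase-promoting complex, stands beside an atrial myosin light chain, and this pair ranked at 99.9 or above in each list. Rpl9/Lias, with a ribosomal protein and lipoic acid synthase, ranked at 99.4 to 99.8, and its span of 52 bp holds none of the 4 motifs. By median width the leading 5 were Zbtb25/Zbtb1 (6375 bp), Mrps18b/Ppp1r10 (6027 bp), Atg12/Ap3s1 (5960 bp), Hnrnpa2b1/Cbx3 (5818 bp) and Ift80/Smc4 (5701 bp). Zbtb1 is a zinc finger factor required for lymphocyte development, and Hnrnpa2b1 and Cbx3, an RNA-binding protein and a heterochromatin protein, share a CpG island that is widely used as an open-chromatin element. The Mrps18b/Ppp1r10 peak was 5244 to 6256 bp wide in 5 libraries and 2136 bp in GFI1-36S curcumin, around a span of 44 bp.

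Motif letters were counted from 150 bp before to 150 bp after a center, and differed between pairs and one-way promoters. The center was the midpoint of a pair and the TSS of a one-way promoter, so the windows were not placed alike. CCGGAAG was found on either strand in 27.9% of pairs, 9.22% of one-way promoters and 16.8% of high-CpG one-way promoters, beside 11.5% of all coding promoters. AAGATGGC, the YY1 motif, was found in 8.48%, 2.96% and 5.79%. CCAAT was found in 45.0% of pairs and 36.4% of one-way promoters, and in 30.5% of those with high CpG. GCATGCGC did not separate pairs (6.49%) from high-CpG one-way promoters (6.495%), and GGGCGG was less common in pairs (68.2%) than in those (80.8%). TATAAA was found in 4.37% of pairs, 11.9% of one-way promoters and 3.25% of those with high CpG. For TGACGTCA (the cyclic AMP response element) the shares were 4.37%, 2.05% and 4.07%, and for CACGTG (the E-box) they were 10.7%, 7.02% and 10.5%, so that pairs were close to high-CpG one-way promoters in both. Pairs with CCGGAAG had a peak in all 6 lists in 94.3% (199 of 211), and pairs without it in 84.2% (458 of 544), but their median ranks were 89.0 and 88.8. Pairs with AAGATGGC had one in 98.4% (63 of 64), with GCATGCGC in 95.9%, with CACGTG in 95.1%, with TGACGTCA in 93.9% and with GGGCGG in 89.7%. Without each of these motifs the shares were 81.25 to 86.7%. The order was the other way round for CCAAT (86.5% with and 87.5% without) and TATAAA (78.8% with and 87.4% without). All motifs with a higher share except the YY1 motif contain a CpG, and those with the reverse order contain none. Among pairs this share also rose with CpG ratio, from 16.7% below 0.3 to 94.4% at 0.9 or more. Pairs with and without a motif were not compared at equal CpG ratio, so the part of the motifs themselves was not tested.

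Few pairs differed in peak presence between curcumin and vehicle. In GFI1-36S, 685 pairs had a peak in at least 1 of the 2 libraries. Of these 25 (3.65%) were listed with vehicle alone, against 16.4% of coding promoters, and 1 (0.146%) with curcumin alone, against 2.1%. In GFI1-36N, 1 of 688 pairs (0.145%) was listed with vehicle alone, against 1.81%, and 4 (0.581%) with curcumin alone, against 5.97%. In GFI1-KD, 7 of 691 (1.01%) were listed with vehicle alone, against 7.06%, and 2 (0.289%) with curcumin alone, against 1.27%. The shares that changed were 3.796%, 0.727% and 1.30% of pairs, 23.0%, 9.97% and 10.4% of one-way promoters, and 10.2%, 3.89% and 5.01% of high-CpG one-way promoters. Of the changed pairs, 96.2% (81.1 to 99.3%) in GFI1-36S, 20.0% (3.62 to 62.5%) in GFI1-36N and 77.8% (45.3 to 93.7%) in GFI1-KD were listed with vehicle alone. In GFI1-KD this share was 43.8% (7 with vehicle alone and 9 with curcumin alone) when the summit had to lie inside the region.

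Widths differed at pairs about as much as at other promoters. The median ratio of width, curcumin to vehicle, was 0.597 at pairs and 0.604 at one-way promoters in GFI1-36S, 1.05 and 1.04 for GFI1-36N, and 0.815 and 0.814 for the GFI1-KD libraries. The median change of rank at pairs was −9.003 in GFI1-36S (574 pairs lower, 85 higher), 1.74 in GFI1-36N (183 lower, 500 higher) and −2.78 in GFI1-KD (534 lower, 148 higher). Over all coding promoters it was −10.5, 2.34 and −3.72. A rank depends on how many weak peaks a list holds, and the curcumin list was the shorter one in GFI1-36S and GFI1-KD and the longer one in GFI1-36N. The ratio of fragments at the summit was 0.561, 0.997 and 0.714 in the median of pairs. Over the 3 genotypes, the median rank differed by −3.29 and the median width by −509 bp on average, lower with curcumin in 2 of 3 (exact two-sided sign-flip permutation test over genotypes, p = 0.5 for each).

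In GFI1-36S the pairs that differed most were low in the curcumin library alone. Cryzl1/Itsn1, with a quinone oxidoreductase-like gene and a scaffold protein of endocytosis, ranked at 84.0, 2.22, 78.0, 86.4, 81.2 and 83.2, with 15 fragments at the summit in GFI1-36S curcumin and 77 to 118 in the others. Abca17/Abca3, which encode lipid transporters, ranked at 94.9, 27.6, 89.9, 93.0, 89.4 and 84.7. Tmtc3/Cep290, where Cep290 is a protein of the ciliary transition zone, ranked at 76.7, 10.6, 72.0, 73.2, 75.03 and 60.2. In each of these pairs the GFI1-36S curcumin value was the lowest of the 6 and stood far below the others.

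Sptbn4/Blvrb, where Blvrb encodes biliverdin reductase B, an enzyme abundant in red cells, ranked at 73.7, 6.05, 70.5, 79.2, 75.7 and 57.3. Erythroid markers had a peak at 7 of 7 promoters in GFI1-36S vehicle and 2 of 7 in curcumin, at 6 and 4 for GFI1-36N and at 7 and 3 for the GFI1-KD libraries, and their part in the values was not tested. The highest-ranked pairs listed with vehicle alone were Fam219a/Dnaic1 (83.0), Ccdc146/Fam185a (81.6) and Acyp1/Zc2hc1c (79.8). Dnaic1 and Ccdc146 are genes of cilia and centrioles. Fam219a/Dnaic1 and Ccdc146/Fam185a had a peak in the 4 other lists, at ranks of 67.5 to 83.2.

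The 1 pair listed with curcumin alone was Smyd1/Cd8b1, at rank 48.9 with 32 fragments and no peak in the 5 other lists. Cd8b1 encodes the beta chain of the CD8 coreceptor of T cells, Smyd1 is a muscle methyltransferase, and the peak covered neither TSS. T cell markers had a peak at 7 of 8 promoters in this library and at 0 to 4 in the others, and their part in it was not tested.

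The largest positive changes of rank in GFI1-36S were mostly on chromosome 15. The 5 largest positive changes were Slc25a27/Cyp39a1 (36.2 to 63.5), Cct5/Fam173b (80.1 to 98.2), Recql4/Lrrc14 (84.2 to 97.7), Eef1d/Tigd5 (85.4 to 97.9) and St13/Xpnpep3 (87.2 to 97.0), and the last 4 lie on chromosome 15. They encode a chaperonin subunit, a helicase, an elongation factor subunit and an Hsp70 cofactor beside their partners. Over the 20 pairs of that chromosome with a peak in both libraries the median change was 5.70 (15 higher, 5 lower), where the 639 pairs elsewhere had −9.23 (70 higher, 569 lower).

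The fragments and the background behind these ranks also differed by chromosome. The median of summit fragments on chromosome 15 was 153 with vehicle and 150 with curcumin, a median ratio of 0.9504, while over all pairs it was 140 and 79. The background expected at the summit, in fragments as scaled by the peak caller, had a median of 6.65 and 7.04 on chromosome 15 in GFI1-36S, against 4.32 and 4.56 over all pairs. It was raised on chromosome 15 in GFI1-KD as well (7.81 and 6.86, against 5.15 and 4.51), and not in GFI1-36N (5.66 and 4.78 on chromosome 15 and over all pairs). Chromosome 14 had a smaller rise, to 5.0 and 5.59 in GFI1-36S and 6.0 and 5.34 in GFI1-KD, and none in GFI1-36N. Its median change of rank in GFI1-36S was −1.38 (10 higher, 13 lower). Median ranks of chromosome 15 pairs were 85.4 in GFI1-36S vehicle and 90.02 in GFI1-36S curcumin, where GFI1-36N vehicle and curcumin had 93.0 and 95.3 and GFI1-KD vehicle and curcumin 84.2 and 79.8. On chromosome X the 13 pairs with a peak in both GFI1-36S libraries were all lower with curcumin, with a median change of −23.8 and a fragment ratio of 0.449. Chromosome 10 was the next lowest, at −19.3 over 27 pairs. The part of the background in these changes was not tested.

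**Figure D4:**
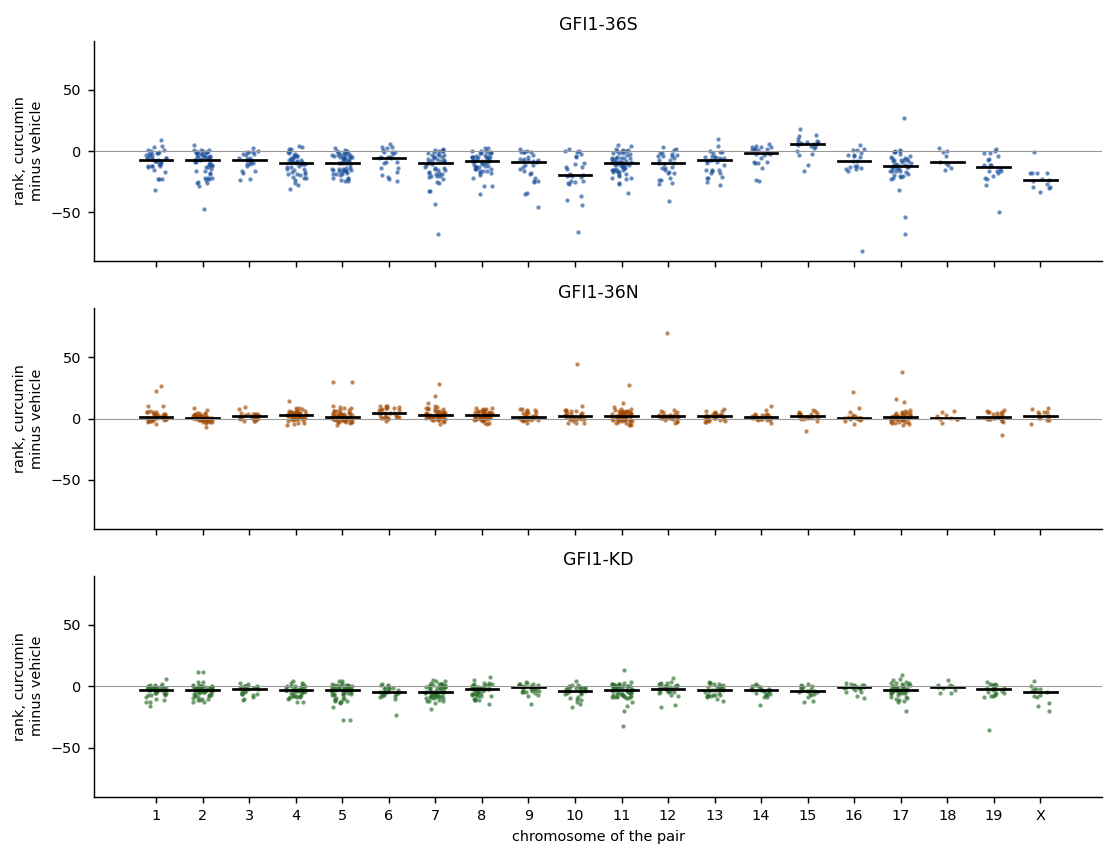
Change of percentile rank from vehicle to curcumin at each head-to-head pair with a peak in both libraries (points, jittered sideways) and the median (bar), by chromosome, for each genotype. In GFI1-36S the median lies at 5.70 on chromosome 15 and at −23.8 on chromosome X, while the medians by chromosome lie between 0.515 and 4.55 in GFI1-36N and between −4.67 and −0.343 in GFI1-KD.

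In GFI1-36N the largest changes were higher with curcumin. Acyp1/Zc2hc1c, with an acylphosphatase, ranked at 79.8, no peak, 2.95, 73.2, 57.5 and 50.2. It was near the bottom of the GFI1-36N vehicle list (18 fragments) and 70.3 points higher with curcumin (44 fragments). Ranked among promoter peaks alone, it was 25.3 points higher. Pcsk4/Reep6, where Pcsk4 is a protease of germ cells, ranked at 65.3, no peak, 21.4, 65.7, 49.9 and 32.9. Gpc2/Stag3, a proteoglycan and a cohesin subunit of meiosis, ranked at 16.8, no peak, 44.2, 74.1, 30.4 and 3.20, and Gm43720/Stag3 has the same peaks. Slc25a27/Cyp39a1 was 37.7 points higher. These are weak sites, with 18 to 33 fragments at the summit with vehicle.

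The highest-ranked pairs listed with curcumin alone were Acvr1/Upp2 (75.7), Fpgt/Lrriq3 (74.5) and Plcd3/Acbd4 (72.2), where Acvr1 is a receptor for bone morphogenetic proteins. All 3 had peaks in GFI1-36S vehicle and in both GFI1-KD libraries, at ranks of 36.2 to 78.9, and Plcd3/Acbd4 had none in GFI1-36S curcumin either. The 1 pair listed with vehicle alone was Il11/Tmem190, at rank 26.7. The largest lower ranks with curcumin were Ifit1bl2/Ifit1 (−13.6), Lmf2/Ncaph2 (−9.82), Atg13/Harbi1 (−6.68), Skiv2l/Nelfe (−5.47) and Srrd/Hps4 (−5.42), and 4 of these 5 stayed at ranks of 86.3 or above.

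Ifit1bl2/Ifit1, whose products belong to the interferon-induced proteins with tetratricopeptide repeats, was the pair with the largest lower rank in GFI1-KD too. It ranked at 58.2, no peak, 72.7, 59.1, 70.0 and 34.3, with 34, 0, 58, 28, 67 and 28 fragments at the summit, where 0 stands for no listed peak. The curcumin library was the lower one in each genotype by the labels. With the GFI1-36S treatments exchanged, as in the list names, GFI1-36S had 34 fragments with curcumin and no peak with vehicle. The width was 1404 and 771 bp for GFI1-36N and 1444 and 459 bp for the GFI1-KD libraries. With its CpG ratio of 0.118 it is unlike most pairs, and its span, shown above, holds none of the 4 motifs.

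In GFI1-KD the other lower ranks were Gm10447/Shroom1 (63.5 to 31.1), Gm43720/Stag3 and Gpc2/Stag3 (30.4 to 3.20), and Wdr54/1700003E16Rik (67.3 to 44.1). Higher ranks were seen at Nlgn2/Tmem256 (79.5 to 92.6), Hspa14/Cdnf and Gm45902/Cdnf, which share their peaks (82.7 to 94.7), Hspa1a/Hspa1l (74.2 to 83.0) and Acd/Pard6a (86.7 to 94.4). Hspa1a encodes the inducible heat shock protein of the Hsp70 family and Hspa14 a ribosome-associated relative. Acd is a subunit of the telomere-binding shelterin complex. At Hspa1a/Hspa1l the fragments at the summit were 74 and 115, and at Hspa14/Cdnf they were 254 and 189, so that the rank of the latter was higher with fewer fragments and a lower expected background. At Nlgn2/Tmem256 the fragments were 155 and 160, with an expected background of 8.0 with vehicle and 4.515 with curcumin. The part of the background in these changes of rank was not tested.

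Zcchc3/6820408C15Rik was listed in GFI1-KD vehicle alone, at rank 86.0 with 155 fragments and a width of 1536 bp, and in no other library. Zcchc3 encodes a zinc finger protein of nucleic acid sensing. The other pairs listed with vehicle alone that ranked highest were Zfyve28/Cfap99 (48.3) and P3h4/Fkbp10 (39.5), and the 2 listed with curcumin alone were Il11/Tmem190 (18.1) and Tango2/Arvcf (13.96). Il11/Tmem190 had its 2 peaks in GFI1-36N vehicle and GFI1-KD curcumin, with 23 and 21 fragments, and so differed in opposite directions.

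**Figure D5:**
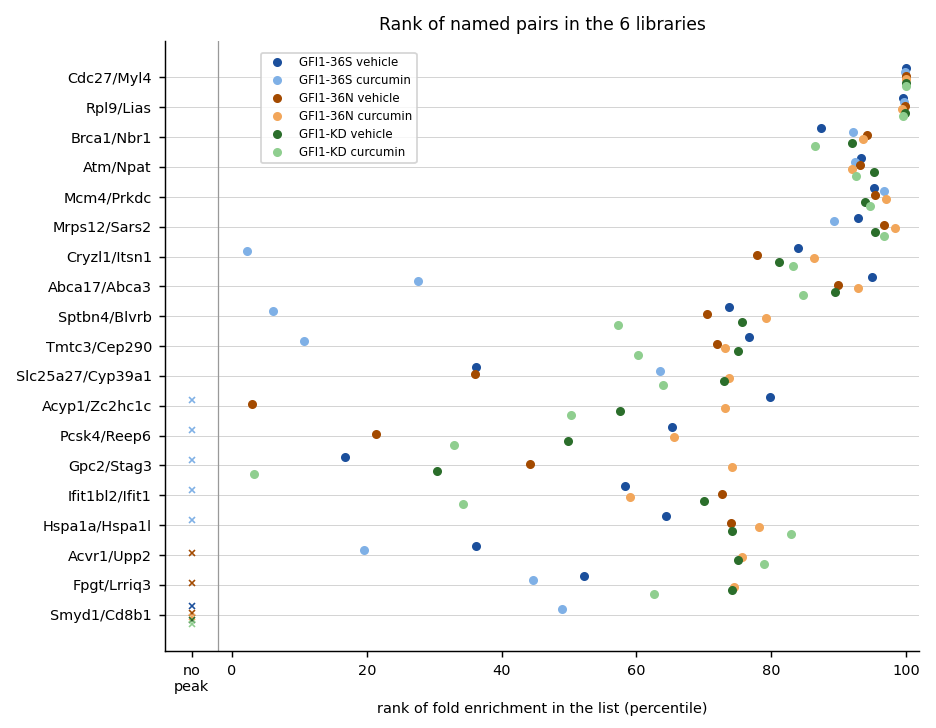
Percentile rank of fold enrichment for named pairs in the 6 libraries (1 colour per library), with crosses at the left where no peak was listed. Cdc27/Myl4 and Rpl9/Lias lie above 99 in every library, Cryzl1/Itsn1 lies at 2.22 in GFI1-36S curcumin and at 78.0 or above in the others, and Smyd1/Cd8b1 has a point in GFI1-36S curcumin alone.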

How the data were processed

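H3K9ac ChIP-seq peak lists of whole bone marrow cells were used, 1 for each of 6 groups. The authors trimmed reads with Trim Galore, aligned them to mm10 with BWA and called peaks with MACS2, leaving out those in ENCODE black list regions. The submitters' processing notes also name Picard, SAMtools and deepTools, without versions. The deposited lists give for each peak a fold enrichment (a ratio of pileup to expected background), a −log10 p-value and −log10 q-value, a display score and, as other values, the offset of the summit. The 2 control libraries, an input and a rabbit IgG, were not analysed here.

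Peaks were assigned to promoters of GENCODE M21 by an overlap of at least 1 bp. TSS is the outermost 5′ end of a gene. The strongest peak by fold enrichment stood for a region. Whole fragments at each summit were recovered from fold enrichment and p-value for 98.7 to 100% of peaks of a list, within a tolerance of 0.002. Python 3.11.15, numpy 2.4.6, pandas 2.3.3, scipy 1.17.1 and matplotlib 3.10.9 were used, and the procedure was tested on simulated data. Sequences were read from the GRCm38 reference.

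With 1 library per group there were no replicates, the only test was an exact sign-flip test of treatment over 3 genotypes, and Wilson 95% intervals cover counting error only. Members, gene lists and marker lists were chosen with earlier results of these data known. Named pairs were 15 textbook pairs, the 3 highest-ranked pairs listed in 1 library of a genotype alone, the 5 largest rank changes in each direction, the 5 highest lowest ranks, the 5 widest, the 3 widest-spaced with separate peaks and the 5 closest without a peak. Further pairs of gene lists, and other pairs without a peak, were named after their values were seen, and some pairs that the rule names are not reported here. Alternatives were a stricter q-value, equal numbers of top peaks, the summit inside the region, 500 bp covered, other classes of promoter and exchanged GFI1-36S treatments.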

Additional observations from a re-analysis of the deposited data

Results flagged for a closer look

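The direction of change between curcumin and vehicle differed between genotypes at the head-to-head pairs, and with 1 library per group this difference was not tested. Of the pairs whose peak was listed in 1 library of a genotype alone, the share listed with vehicle was 20.0% of 5 pairs in GFI1-36N, 77.8% of 9 pairs for GFI1-KD and 96.2% of 26 pairs for GFI1-36S. The median change of rank was 1.74 in GFI1-36N and −2.78 in GFI1-KD. The median ratio of widths was 1.05 in GFI1-36N and 0.815 in GFI1-KD. Lists were longer with curcumin in GFI1-36N and shorter in both other genotypes, and with equal numbers of top peaks the shares listed with vehicle were 20.0% in GFI1-36N (2 with vehicle and 8 with curcumin alone), 100% in GFI1-KD (5 and 0) and 87.0% in GFI1-36S (20 and 3). The part of list length in the rank and width values was not tested.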

How the results depend on the processing

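Replicate numbers gave no pairing of samples, since all groups share number 1. Pairing by genotype, added after seeing the data, gave an exact two-sided permutation p of 0.5 for the share with a peak, width and rank of pairs, and 0.75 with the GFI1-36S treatments exchanged, where 0.25 is the smallest possible. The share of pairs with a peak in all 6 lists (87.0%) was 84.4% when at least 500 bp had to be covered and 89.8% over the 5 lists without GFI1-36S curcumin. The one-way share (32.9%) was 32.0% at a −log10 q of at least 5, 32.1% with equal numbers of top peaks, 30.8% with the summit inside, 29.1% with 500 bp covered, 38.8% over 5 lists, 33.8% on autosomes, 31.3% with no other TSS within 5000 bp and 73.4% at high CpG. The median rank difference, pairs minus one-way (5.38), was 7.46 with equal numbers of top peaks, 14.3 when ranked among promoter peaks, −0.611 against high-CpG one-way promoters and, added after seeing the data, −1.78 against these with equal top peaks and 2.47 within bands of CpG ratio. The high-CpG promoters have more CpG than the pairs by construction. The share of changed pairs listed with vehicle alone in GFI1-KD was 100% with equal top peaks and 43.8% with the summit inside, and in GFI1-36S it was 3.85% with treatments exchanged. The cause of the GFI1-KD moves was not tested. Ranked among promoter peaks, most rank changes checked at named pairs were smaller. In GFI1-36S they were −50.0 for −81.75 at Cryzl1/Itsn1 and −26.8 for −67.65 at Sptbn4/Blvrb. At Ifit1bl2/Ifit1 in GFI1-KD the change was −13.8 for −35.65. Slc25a27/Cyp39a1 in GFI1-36S went the other way, with 31.6 for 27.3. Of 60 alternatives, 36 stayed within the spread, 20 moved and 4 changed direction. The spread was the Wilson interval for shares, the range over libraries for differences and a fixed fraction of the main value at named pairs. The change of direction with exchanged GFI1-36S treatments followed from the exchange itself. The width difference kept its direction under all alternatives run, in the median over libraries. Single libraries, unknown depth and removed regions limit all values.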
